A study of Mus musculus with 3 samples.

Results

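The expression of 11396 protein-coding genes was compared between mouse induced cardiomyocytes (iCMs) made with the GMTMS cocktail and untransduced infarct fibroblasts (MICFs). The genes are those with 50 or more counts in at least one of both libraries, out of 22046 protein-coding genes and 54532 genes in the deposited tables. RNA was sequenced from 3 libraries, 1 for each condition. Both compared libraries came from adult Myh6-mCherry mice, in which the promoter of the cardiac myosin gene Myh6 drives a red reporter, and all cells were isolated 5 days after myocardial infarction and cultured for 4 weeks. MICFs received no virus. GMTMS-iCMs were transduced with viral vectors for Gata4, Mef2c, Tbx5, Myocd and Sall4, kept in medium with doxycycline and sorted for mCherry, and 5 sorted samples were pooled into the library. Virus, doxycycline, the sort and the pooling differ between the libraries together with the cocktail, and so does Y-linked RNA, which is given below. Their effects cannot be told apart. The other library, labelled GMTMM, was made in the same way and is given only for values set beside the others. It shares the MICF control, and its label is contradicted by 1060 counts of Sall4, a gene outside that cocktail, and 0 counts of Mesp1, a gene of it.

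Direct reprogramming forces cardiac transcription factors into fibroblasts so that they switch on muscle genes without passing through a stem cell. Fibroblasts of the infarct build the scar from collagen and share the tissue with macrophages, which clear debris and answer danger signals with cytokines, and with endothelial cells, which line vessels. Cells can sense foreign nucleic acid and then release type I interferon, which switches on a large set of antiviral genes.

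The library totals were 11861773 counts in MICFs and 10624118 in GMTMS-iCMs, and the genes compared held 98.0% and 98.2% of them. A fold is the ratio of the deposited FPKM (fragments per length of transcript and depth of library, on a scale the authors set), with an exact Clopper-Pearson 95% interval on the counts. These intervals cover counting error only, because 1 library per condition gives no replicate check. Counts of 0 allow up to 3 counts, or 0.253 CPM in MICFs and 0.282 CPM in GMTMS-iCMs, and folds against 0 are lower bounds set against 3 counts. The median log2 fold over all genes was -0.03. With library totals in place of the authors' scale it was lower by 0.47, and that scale moves the 2-fold calls (1521 higher and 1980 lower became 937 and 3255, so 22.4% rather than 43.4% of calls were higher). Of the genes compared, 13.3% were over 2-fold higher in GMTMS-iCMs and 17.4% over 2-fold lower, and 7895 lay within 2-fold. These shares are to be set beside the counts of each list below. Genes called higher took 15.3% of the MICF counts and 38.2% of the GMTMS-iCM counts, whereas genes called lower took 16.2% and 2.51%. Among the 158 genes with 10000 or more counts in the library where they were highest 79 were higher and 23 lower, while among the 2923 with fewer than 200 there 324 were higher and 815 lower.

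The labels were checked against marker panels first. The 7 cardiomyocyte markers summed to 1.28 FPKM in MICFs and 678 in GMTMS-iCMs, and among them Myh6, whose promoter the sort used and which is therefore no finding, had 0 and 14098 counts. The 7 fibroblast markers went from 1237 to 172 FPKM. The 7 macrophage markers summed to 2531 FPKM in MICFs and 5171 in GMTMS-iCMs, above the cardiomyocyte and the fibroblast markers in both libraries, so both libraries hold abundant macrophage RNA that their labels do not name. Lyz2, which encodes lysozyme and marks macrophages, was the most abundant protein-coding gene in both, at 6135 and 11350 FPKM, and Apoe, a lipid carrier of macrophages, the second, at 5331 and 9433 FPKM. The 5 endothelial markers went from 419 to 10.6 FPKM. Lymphocyte markers were near 0 in both, at 0.116 and 0.327 FPKM, and Myod1 and Myog, which define skeletal muscle, were at 0 in both. In a bulk library, fewer cells of a type and less RNA per cell cannot be told apart. All 4 Y-linked genes of the list (Ddx3y, Eif2s3y, Uty and Kdm5d) were at 0 counts in MICFs, against 880, 402, 174 and 174 in GMTMS-iCMs. The libraries thus differ in Y-linked RNA, and the labels do not give the sex of the mice. For the other genes, a difference between the mice of the libraries cannot be told apart from the cocktail.

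**Figure D1:**
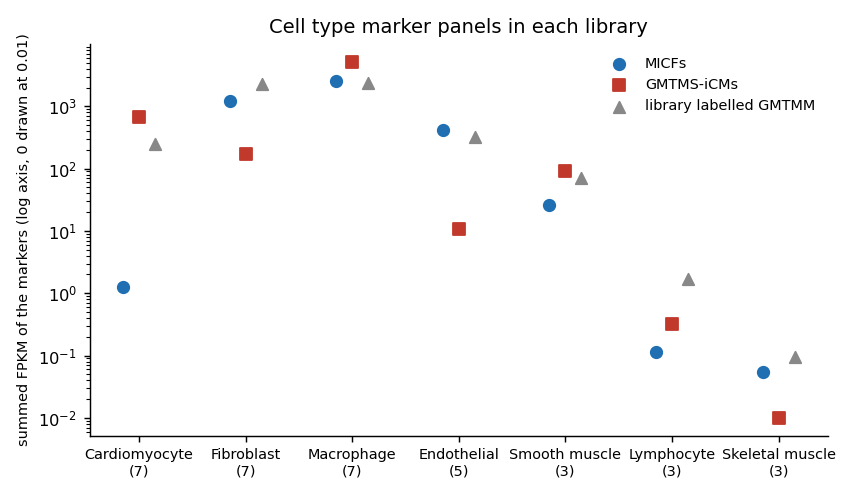
Summed FPKM (log axis) of each cell type marker panel, with the number of markers in brackets, in MICFs (circles), GMTMS-iCMs (squares) and the library labelled GMTMM (triangles), 1 library each. Macrophage markers reach 2531 FPKM in MICFs and 5171 in GMTMS-iCMs, while endothelial markers go from 419 to 10.6.

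**Figure D2:**
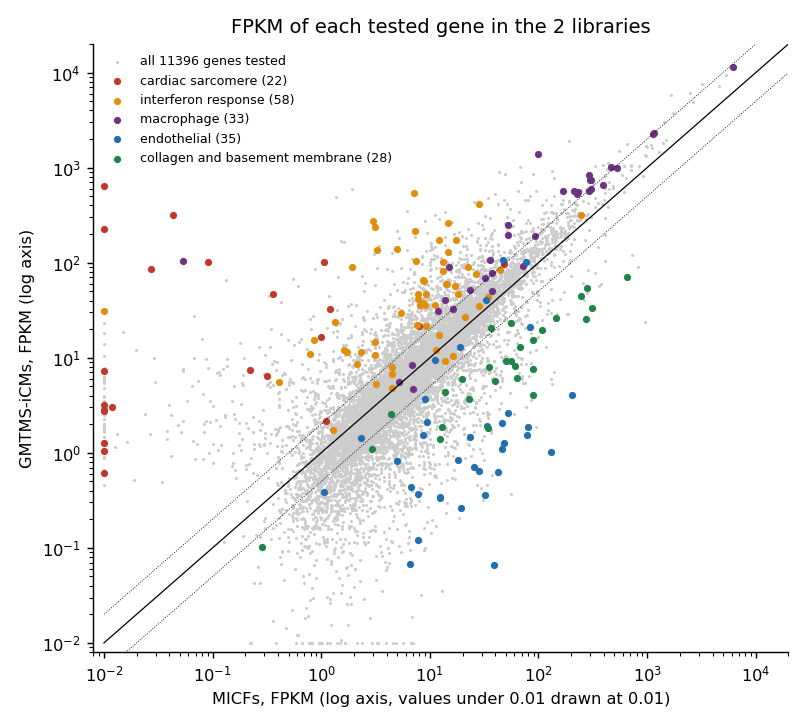
FPKM of each of the 11396 genes in MICFs (horizontal) and GMTMS-iCMs (vertical), both on log axes, with the members of 5 lists coloured and dotted lines at 2-fold. Interferon genes mostly lie above the diagonal, endothelial and collagen genes mostly below it, and macrophage genes lie at the upper end in both libraries.

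Of the 5 delivered factors 4 were over 2-fold higher, and 3 with library totals, TMM or quantile normalization. Tbx5, a T-box cardiac factor, had 1 count in MICFs against 804 in GMTMS-iCMs. Sall4, a zinc finger factor, had 0 and 1190 counts, at least 614-fold. Myocd, a partner of serum response factor, had 8 and 574 counts, a 111-fold difference (56.0 to 259). Gata4 was 2.10-fold higher (1.93 to 2.30), a call lost under those scalings, and Mef2c, at 1.98-fold (1.82 to 2.15), did not pass 2-fold. The counts do not tell the transgene from the gene in the genome. Of the 22 tested sarcomere genes 21 were higher, with a median log2 fold of 5.28 beside -0.03 over all genes. Actc1, the cardiac actin of the thin filament, went from 1 count to 4765, a 7382-fold difference (1324 to 291600). Myl7, the atrial myosin light chain, had 0 and 3507 counts. Acta1, the skeletal actin, went from 2 counts to 1467.

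The upstream sequence of Actc1, Myl7 and Acta1, chosen after their values were seen, holds the CArG box, the site at which serum response factor binds and through which Myocd acts, and it is shown for that reason. In the 300-base promoter windows of RefSeq (250 bases before the start and 50 after, GRCm38.p6), 9126 of the 11396 tested genes were matched, and 125 of the windows (1.37%) held a CArG box on either strand. Of the 19 sarcomere genes with a window, 6 held one. The letters GGAATG, searched as the TEAD site, were in 10 of the 19, and a MEF2 site was in 2. Over all matched windows these were in 11.6% and 1.64%. No CArG box was found before the start of Tnnt2, and no MEF2 site before that of Myh6. The capitals mark the box, which ends 38 bases before the start in Actc1 (chr2:114052888-114052947, minus strand), 52 in Myl7 (chr11:5898809-5898868, minus strand) and 64 in Acta1 (chr8:123894814-123894873, minus strand). A match describes the letters and is not a measured binding site.
Actc1: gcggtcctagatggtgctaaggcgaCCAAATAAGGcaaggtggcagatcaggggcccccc
Myl7: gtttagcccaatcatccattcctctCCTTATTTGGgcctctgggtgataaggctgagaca
Acta1: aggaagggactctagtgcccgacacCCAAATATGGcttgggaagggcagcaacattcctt

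Beyond the sarcomere the cardiac genes were mixed. Ryr2, the calcium release channel of the sarcoplasmic reticulum, went from 0 counts to 1570, and Hcn4, the pacemaker channel, from 0 to 798. Kcnj5, a potassium channel of the atrium and pacemaker, went from 23 counts to 562 and was 37.9-fold higher, and Kcnh2, which carries the rapid delayed rectifier current, was 32.2-fold higher (17.7 to 65.5). Atp2a2, the calcium pump of the reticulum, was 4.00-fold higher (3.84 to 4.16). Against these, Gja5, the connexin of atrial muscle and of arterial endothelium, went from 567 counts to 1. Kcnq1 was 7.75-fold lower (3.39 to 21.8) and Casq2, the calcium store protein, 3.04-fold lower (1.78 to 5.47). Of the 19 tested excitation and calcium genes 12 were higher and 5 lower, and 8 and 2 with quantile normalization.

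Of the 15 tested cardiac transcription factors outside the cocktail, 0 were over 2-fold higher and 7 lower, with a median log2 fold of -0.65. Tbx20, a T-box factor of the heart, went from 5005 counts (29.0 FPKM) to 979 (8.79 FPKM), 3.30-fold lower (3.08 to 3.54). Hand2, a factor of the right heart and its outflow, was 3.90-fold lower (2.54 to 6.21) and Zfpm2, a partner of Gata4, 5.47-fold lower (3.72 to 8.35). Of the skeletal muscle list, all 7 myogenic factors were at 0 counts in both libraries, yet all 4 tested contractile genes were higher. Tnnt1, the slow skeletal troponin, was 57.7-fold higher (31.9 to 117) and Mylpf, a fast skeletal light chain, 24.3-fold higher (12.9 to 51.7).

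Interferon response genes were higher in GMTMS-iCMs. Of 58 tested interferon response genes 44 were over 2-fold higher and 0 lower, with a median log2 fold of 2.28 beside -0.03 over all genes and 1.11 over the macrophage list, and the library labelled GMTMM had a median of 1.80. Counts under the other scalings were 42 higher and 2 lower with library totals, 44 and 0 with TMM, and 43 and 0 with quantile normalization. The antiviral effectors, which block viral RNA and its translation, were 21 of 24 higher. Mx1, an antiviral GTPase, had 163 counts in MICFs (2.99 FPKM), against 9616 in GMTMS-iCMs (274 FPKM), with 4183 for the library labelled GMTMM (94.6 FPKM), and it was 91.4-fold higher (78.3 to 107). Rsad2, which makes a chain-ending nucleotide, had 446 counts (7.15 FPKM), 21652 (538 FPKM) and 10839 (214 FPKM), and was 75.2-fold higher (68.5 to 82.8). Oasl1, of the family that senses double-stranded RNA, was 76.6-fold higher (63.8 to 92.8). Ifit1, which binds viral messenger RNA ends, was 29.5-fold higher (26.1 to 33.4) and Isg15, a ubiquitin-like modifier, 14.8-fold higher (13.2 to 16.7). Because these genes were picked for large folds, their lower value in MICFs than in GMTMS-iCMs follows from the choice. The library labelled GMTMM was also above MICFs in each.

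The GTPases had a higher median than the sensors and signalling genes (2.92 and 1.08 on the log2 scale). The 14 inducible GTPases, which attack the vacuoles of intracellular microbes, were 13 of 14 higher. Gbp5 had 183 counts in MICFs (1.92 FPKM) against 5505 in GMTMS-iCMs (89.3 FPKM), 46.6-fold (40.2 to 54.3), and Iigp1 was 14.2-fold higher (12.7 to 15.9). Tgtp1 and Tgtp2, near copies of each other whose reads may be split between them, were 13.4-fold and 17.6-fold higher (intervals 8.35 to 22.9 and 13.4 to 23.4). Of the 20 sensors and signalling genes only 10 passed 2-fold. Ifnb1, the interferon beta gene itself, had 0 counts in MICFs, against 215 in GMTMS-iCMs, with 142 for the library labelled GMTMM. Ifih1, which senses double-stranded RNA in the cytoplasm, was 27.8-fold higher (25.6 to 30.3) and Irf1, a factor that switches on these genes, 14.3-fold higher (13.2 to 15.5). Stat2, which carries the interferon signal to the nucleus, was 4.22-fold higher (3.95 to 4.51), whereas the receptor gene Ifnar1 was 1.22-fold (1.15 to 1.30). Tmem173, the STING adaptor of the DNA sensing pathway, was 1.28-fold (1.14 to 1.43) and Mavs, the adaptor of the RNA sensing pathway, was 1.58-fold lower (1.39 to 1.81), both within 2-fold.

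The upstream sequence of some interferon and chemokine genes holds the letters of 2 known elements, and windows with a match are printed for that reason. No interferon element was found before the start of Oasl1, Cmpk2 and Ifih1, and no NF-kB element before that of Il1rn, Il1b, Acod1 and Tnip3. The interferon element was searched as GAAA, 2 bases of any kind and GAAA again, and the NF-kB element as GGGA, 2 bases of any kind and TTCC, each on both strands and shown for genes chosen after their values were seen, so the interferon element also appears with TTTC on either side. Windows of 300 bases held the first in 3.2% of the 9126 matched genes and the second in 1.52%. Of the 14 GTPases 10 had a window and 9 of those held the interferon element, and of the 24 antiviral effectors 18 had a window and 10 held it. Of the 31 chemokine and cytokine genes 21 had a window and 5 held the NF-kB element. The AP-1 element, searched as TGA, 1 base of any kind and TCA, was in 4.81% of the matched genes. It was in 7 of the 21 chemokine and cytokine windows and in 6 of the 18 antiviral effector windows, and is not printed. Among the genes called higher, 1192 had a window and 76 of them held the interferon element, against 39 of 1485 among those called lower. Since under 80% of each of these groups had a window, the counts describe the matched genes and not the whole groups. Capitals mark the matches: 1 or more per window, with 3 overlapping matches in Isg15 and 2 overlapping matches in Cxcl2. The windows lie at chr19:34640779-34640838 (Ifit1, plus strand), chr4:156200850-156200909 (Isg15, minus strand), chr3:142496744-142496803 (Gbp5, plus strand), chr12:26456538-26456597 (Rsad2, minus strand), chr5:92349068-92349127 and chr5:92349014-92349073 (Cxcl10, minus strand, interferon element first and NF-kB element after it) and chr5:90903778-90903837 (Cxcl2, plus strand).
Ifit1: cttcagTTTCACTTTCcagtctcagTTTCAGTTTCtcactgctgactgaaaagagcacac
Isg15: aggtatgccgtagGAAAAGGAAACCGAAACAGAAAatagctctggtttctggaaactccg
Gbp5: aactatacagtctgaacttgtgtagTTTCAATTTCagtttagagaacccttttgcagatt
Rsad2: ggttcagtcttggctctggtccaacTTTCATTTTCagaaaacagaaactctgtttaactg
Cxcl10 interferon element: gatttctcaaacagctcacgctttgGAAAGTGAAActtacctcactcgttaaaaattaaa
Cxcl10 NF-kB element: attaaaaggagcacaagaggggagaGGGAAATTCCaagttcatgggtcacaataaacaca
Cxcl2: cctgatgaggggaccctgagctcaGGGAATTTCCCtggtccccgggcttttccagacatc

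Chemokines and cytokines were higher in 22 of 31 tested genes and lower in 2, with a median log2 fold of 1.98 (2.16 in the library labelled GMTMM). Cxcl10, the chemokine that draws T cells, had 44 counts in MICFs (1.36 FPKM), against 10253 in GMTMS-iCMs (490 FPKM), with 6761 for the library labelled GMTMM (257 FPKM), and it was 361-fold higher (269 to 497). Il1rn, the antagonist that blocks the interleukin 1 receptor, had 153 counts (1.92 FPKM), 30811 (599 FPKM) and 13996 (216 FPKM), 312-fold higher (266 to 368). Il1rn thus moved beside the ligands it opposes, Il1a and Il1b, which were 44.0-fold (35.9 to 54.6) and 24.7-fold (22.3 to 27.5) higher. Ccl5 was 111-fold higher (72.1 to 179), Cxcl2, which draws neutrophils, 17.2-fold (16.3 to 18.2), and Il10, an anti-inflammatory cytokine, 14.1-fold (13.0 to 15.3). The 2 chemokines that were lower are made by stroma and endothelium: Cxcl12, which holds blood cell precursors in place, had 3905 counts and 386 (6.53-fold lower, 5.88 to 7.27), and Cx3cl1 had 778 and 96 (5.23-fold lower, 4.23 to 6.54).

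**Figure D3:**
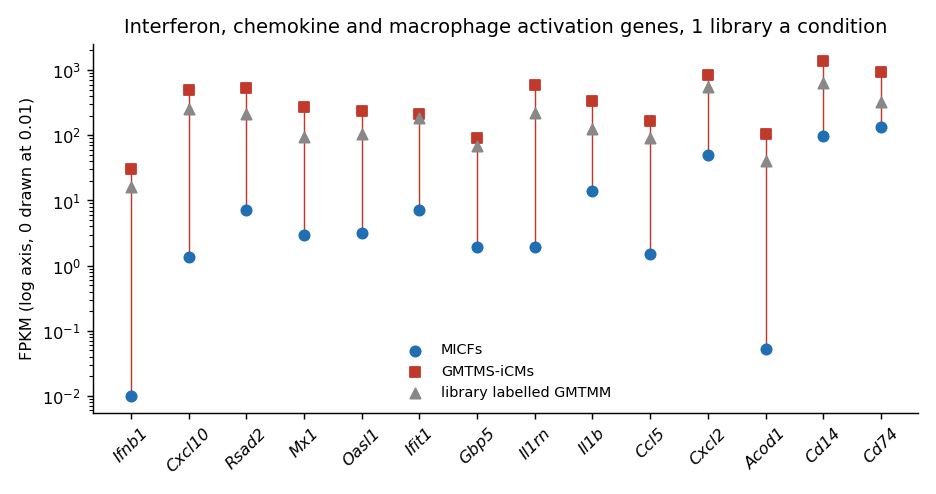
FPKM (log axis, 0 drawn at 0.01) of 14 interferon, chemokine and macrophage activation genes in MICFs (circles), GMTMS-iCMs (squares) and the library labelled GMTMM (triangles), with a line from the first to the second. The genes were chosen after their values were seen, and Cxcl12, Cx3cl1 and Cx3cr1, which were lower in GMTMS-iCMs, are not drawn. Every gene drawn is lowest in MICFs, and Ifnb1, at 0 FPKM there, reaches 30.9 in GMTMS-iCMs.

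Antigen presentation was higher in 18 of 25 tested genes and lower in 0, with medians of 1.27 for the class I and 2.51 for the class II pathway. Cd74, the chaperone of class II molecules, had 2677 counts (132 FPKM) in MICFs against 12100 (924 FPKM) in GMTMS-iCMs, 7.00-fold (6.71 to 7.30), and the class II chains H2-Aa, H2-Eb1 and H2-Ab1 were 6.93-fold, 6.47-fold and 5.69-fold higher. H2-K1, a classical class I chain chosen after its values were seen, was 2.70-fold higher (2.65 to 2.76). With library totals 11 of the 25 passed 2-fold. The H2-Q genes H2-Q4, H2-Q6 and H2-Q7 are close paralogs, and their folds of 4.04, 18.1 and 11.7 are uncertain for that reason.

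Macrophage genes were higher on the deposited scale, and spread widely among themselves. Of 33 tested, 23 were higher and 0 lower, with a median log2 fold of 1.11 (-0.02 in the library labelled GMTMM), and the list summed to 12740 FPKM in MICFs and 27110 in GMTMS-iCMs. This count depends on the scale, with 9 higher and 1 lower by library totals and 7 and 0 by quantile normalization, while the log2 median kept its sign under both. The 7 macrophage markers of the label check ran from 1.64-fold (Tyrobp, a signalling adaptor) to 2.97-fold (Ptprc, the CD45 antigen of blood cells), with Csf1r, the receptor for the macrophage growth factor, at 1.93-fold. Single members lay outside that range. Acod1, which makes the antibacterial metabolite itaconate, had 2 counts in MICFs against 2532 in GMTMS-iCMs, a 1961-fold difference (542 to 16200), and 1252 counts in the library labelled GMTMM. Cd14, the co-receptor for bacterial lipopolysaccharide, went from 2219 counts to 20292, 14.2-fold (13.6 to 14.8). Cybb, the oxidase of phagocytes, and Msr1, a scavenger receptor, were 4.77-fold (4.61 to 4.94) and 6.02-fold (5.67 to 6.40) higher. Cx3cr1, a receptor of resident macrophages, was 1.48-fold lower (1.25 to 1.76) and Cd163, a scavenger receptor of resident macrophages, 1.08-fold (0.926 to 1.26). The interferon, chemokine and antigen presentation genes stand beside these macrophage values, and their part in those results was not tested. In the interferon list 44 of 58 genes lay above the macrophage median, and in the antigen presentation list 15 of 25 did.

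The lysosome, which macrophages use to break down what they engulf, had smaller differences: 15 of 39 tested members were higher and 0 lower, with a median log2 fold of 0.72 (0.06 in the library labelled GMTMM). Ctsb and Ctss, cathepsin proteases, were 2.13-fold (2.11 to 2.14) and 2.72-fold (2.66 to 2.79) higher. With library totals 2 were higher and 1 lower.

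Transcription factors of the immune response were among those that were higher. The transcription factors as the deposited tables classify them were 785 of the tested genes, of which 102 (13.0%) were higher and 214 (27.3%) lower. All 5 members of the Rel family that bind DNA as NF-kB were higher: Rel by 21.3-fold (19.3 to 23.5), Nfkb1 by 8.30-fold (7.89 to 8.74), Nfkb2 by 7.43-fold (6.92 to 7.97), Relb by 5.75-fold (5.21 to 6.36) and Rela by 2.33-fold (2.19 to 2.49). These genes were chosen after their values were seen. Tnip3, which restrains NF-kB signalling, had 21 counts in MICFs against 6601 in GMTMS-iCMs, 487-fold (318 to 787). Of the 8 interferon regulatory factors 4 were higher and 0 lower (Irf1, Irf5, Irf7 and Irf9), and of 6 STAT genes 3 were (Stat2, Stat3 and Stat5a). Not every stimulus gene followed, since Egr1, an early growth response factor, went from 12748 counts to 2994 (2.75-fold lower, 2.64 to 2.86) and Fos, of the AP-1 dimer, from 13986 to 4233 (2.13-fold lower, 2.06 to 2.21), both also chosen after their values were seen. Zinc finger factors of the C2H2 type, often repressors, were 23 of 338 higher and 121 lower, and with fewer than 200 counts 48.7% of them were lower beside 26.4% of the other tested genes. With 1000 or more counts and fewer than 10000 the order was the opposite, with 1 of 28 lower (3.57% beside 11.8% of the others) and 13 higher.

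**Figure D4:**
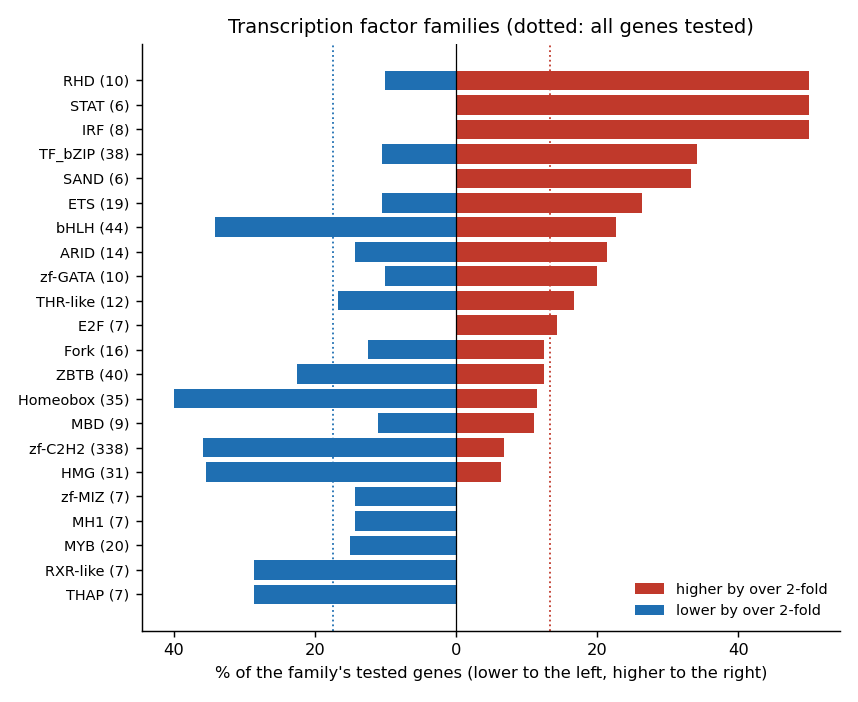
Percent of each transcription factor family (tested genes in brackets) that was over 2-fold higher (right) or lower (left) in GMTMS-iCMs than in MICFs, with dotted lines at the 13.3% and 17.4% of all tested genes. IRF, STAT and Rel (RHD) families have 50% higher, while Homeobox has 40% lower.

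Some genes that were called lay side by side. Runs of 5 or more neighbouring tested genes that passed 2-fold the same way numbered 14. Neighbours here are consecutive among tested genes only. The runs include 5 Y-linked genes over 89919 kb, which repeat the Y-linked difference between the libraries given above. Of all tested genes 13.3% were called higher and 17.4% lower, and the number of runs expected from these shares was not computed. The longest was the Ifi200 cluster of DNA sensors on chromosome 1 (from 173468485 to 174031810), where 11 consecutive genes were higher with a median log2 fold of 2.85. Ifi205 there went from 85 counts to 2759, 50.3-fold (40.5 to 63.2), and Ifi204 from 964 to 4254, 6.84-fold (6.37 to 7.34). The Slfn genes, growth regulators of immune cells, formed part of a run of 8 on chromosome 11, where Slfn1 was 18.3-fold (10.6 to 34.1) and Slfn4 7.95-fold (6.39 to 9.99) higher. In the other direction, the longest run was of 10 Pcdhb genes, clustered protocadherins of cell adhesion, with a median of -2.74, and 5 Gimap genes, which act in blood and vessel cells, formed one on chromosome 6 (from 48647234 to 48754210) with a median of -5.09, in which Gimap4 went from 128 counts to 5. These families hold near copies, so reads may be split among their members. The single genes named from the runs were chosen after their values were seen.

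Endothelial genes had the lowest median of the 34 lists. Of 35 tested genes 29 were lower and 1 higher, with a median log2 fold of -4.43 (-0.26 in the library labelled GMTMM). All 15 junction and surface genes were lower, and their FPKM summed to 715 in MICFs and 39.3 in GMTMS-iCMs. Cdh5, the adhesion protein of endothelial junctions, had 12354 counts (204 FPKM) in MICFs, against 157 (4.02 FPKM) in GMTMS-iCMs, with 7239 (147 FPKM) for the library labelled GMTMM, and was 50.8-fold lower (43.4 to 59.8). Egfl7, a vessel-secreted factor, was 88.4-fold lower (50.5 to 172) and Vwf, which tethers platelets, 64.5-fold lower (40.7 to 109). All 9 receptors and ligands were lower too. Apln, a peptide of sprouting vessels, went from 5916 counts (131 FPKM) to 30 (1.03 FPKM), 127-fold lower (89.1 to 189), and Dll4, the Notch ligand of sprouting tips, from 2652 to 45. Sox18, a vessel transcription factor, went from 901 counts to 1, 582-fold lower (104 to 23000). The transcription factors were mixed, with 5 lower, 1 higher and 5 within 2-fold of 11. Klf2, which answers blood flow in vessels but is also made by macrophages, was 2.24-fold higher (2.08 to 2.41), and Lmo2 and Klf4 were 1.32-fold and 1.22-fold. With library totals 31 were lower and 0 higher.

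Genes of pericytes, the cells that wrap small vessels, were also lower, with 6 of 8 tested genes lower, 0 higher and a median of -3.00. Mcam, an adhesion molecule of pericytes and endothelium, went from 6269 counts to 188, 21.5-fold lower, and Pdgfrb, the receptor that recruits them, from 6660 to 453, 9.49-fold lower (8.63 to 10.5). Contractile smooth muscle genes were mixed, with 3 higher, 4 lower and 3 within 2-fold of 10 tested and a median of -0.11. Myh11, the smooth muscle myosin, had 1867 and 4947 counts, 4.11-fold higher (3.89 to 4.33), and Cnn1, calponin, 213 and 402, 2.92-fold higher (2.47 to 3.47), whereas Smtn, smoothelin, was 6.32-fold lower (5.45 to 7.36) and Actg2, an enteric actin, 13.3-fold lower (8.18 to 23.1).

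Matrix genes were lower throughout the collagen list and mixed among the enzymes. Of 28 tested collagen and basement membrane genes 26 were lower, 0 higher, with a median of -2.52 (0.61 in the library labelled GMTMM). Col3a1, a fibrillar collagen, had 91516 counts (648 FPKM) in MICFs, against 6501 (71.3 FPKM) in GMTMS-iCMs, with 117523 (1025 FPKM) for the library labelled GMTMM. Col18a1, a basement membrane collagen of vessels, was 21.9-fold lower (19.3 to 24.8) and Nid1, which links laminin to collagen IV, 10.3-fold lower (9.29 to 11.4). The enzymes that cut matrix split by type. Mmp13, a collagenase, had 190 counts and 5403, 44.1-fold higher (38.1 to 51.2), and Mmp19 and Mmp12, the latter an elastase of macrophages, were 9.67-fold (8.87 to 10.6) and 6.50-fold (5.89 to 7.18) higher. Adamts5, which cuts proteoglycans, was 22.7-fold lower (18.8 to 27.6) and Mmp3 9.08-fold lower (7.91 to 10.5). Lox, which crosslinks collagen, was 8.32-fold lower (6.58 to 10.7), and all 10 collagen processing genes that passed 2-fold were lower. Plaur, the urokinase receptor, was 10.2-fold higher (9.14 to 11.4).

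Fibroblast genes were 19 of 23 lower and 2 higher, with a median of -2.38. Snai2, a factor of mesenchymal cells, went from 197 counts to 6 and Osr1 from 84 to 6. The 2 that were higher, Runx1 and Zeb2, are also made by blood cells, with log2 folds of 2.40 and 1.37.

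Growth and patterning genes were lower more often than higher. Of 46 tested growth factor genes 25 were lower and 5 higher. Over all genes tested 17.4% were lower and 13.3% higher. The counts of higher genes in the growth factor, Wnt and TGF-beta and BMP lists lie near that share. Igfbp3, a binding protein that carries IGF, went from 43256 counts (960 FPKM) to 699 (24.0 FPKM), 39.9-fold lower (37.1 to 43.1), and had 41721 counts in the library labelled GMTMM. Vegfd, which drives lymphatic growth, was 14.6-fold lower (10.8 to 20.2), and Npr1 and Npr3, receptors of natriuretic peptides, were 25.1-fold (13.5 to 52.8) and 21.8-fold (11.7 to 45.9) lower. The largest folds upward among the tested members were those of EGF family ligands, Areg, at 11.7-fold (5.82 to 26.7), and Hbegf, at 11.1-fold (9.64 to 12.9). Wnt genes were 13 of 17 lower, among them the receptor Fzd4, 26.4-fold lower (18.4 to 39.3), while the receptor Fzd7 was 5.61-fold higher (5.06 to 6.24). In the TGF-beta and BMP list 12 of 35 were lower and 5 higher, with 18 and 3 by library totals and 12 and 2 by quantile normalization. Bmp4, a ligand, went from 334 counts to 3, 71.9-fold lower (24.4 to 350), and Id1, a target of that pathway, went from 519 counts to 28, but Id2 was 9.35-fold higher (8.74 to 10.0) and Skil, which holds back SMADs, 18.5-fold higher (16.8 to 20.4). Among Notch genes, Notch4 and Dll4, both of the endothelium, went from 3425 counts to 32 and from 2652 to 45, whereas Notch1 and Notch2 were higher by 1.68 and 1.14 on the log2 scale.

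Cell cycle genes were lower in 15 of 49 tested and higher in 5, with a median log2 fold of -0.75. Over all genes 17.4% were lower and 13.3% higher, so the count of higher genes is under its share. The counts depend on the scale, with 32 lower and 2 higher by library totals and 7 and 3 by quantile normalization. Ccna2, a cyclin of S phase and G2, was 5.74-fold lower (3.56 to 9.77), Ccnd2, a G1 cyclin, 6.25-fold lower (5.57 to 7.03) and Plk1, a mitotic kinase, 3.06-fold lower (1.85 to 5.31). Mki67, the usual proliferation marker, went the other way from 665 counts (4.59 FPKM) to 3165 (33.9 FPKM), 7.37-fold higher (6.78 to 8.03), while Top2a and Cdk1, which it normally accompanies, were 1.54-fold (1.32 to 1.79) and 1.36-fold (1.08 to 1.72) lower and within 2-fold. Cdk6, a G1 kinase, was 4.72-fold higher (4.36 to 5.11) and Cdkn1a, the cell cycle inhibitor p21, 2.48-fold higher (2.38 to 2.59).

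Energy genes mostly lay within 2-fold, as did 7895 of all 11396 genes tested. Of 71 tested oxidative phosphorylation genes 70 lay within 2-fold, with a median log2 fold of 0.23 that was -0.24 with library totals, and the 1 that was higher was Cox6a2, the subunit of heart and skeletal muscle, from 25 counts to 76 (4.71-fold, 2.96 to 7.73). The fuel use list had 17 of 72 higher and 1 lower, with 14 and 5 by library totals. Fabp3, the fatty acid carrier of heart muscle, went from 10 counts to 208, 32.2-fold (17.2 to 68.2), and Mb, myoglobin, from 0 to 77. Hk2, the hexokinase that commits glucose to glycolysis, went from 388 counts (4.52 FPKM) to 7011 (126 FPKM), 28.0-fold (25.3 to 31.1), and 9 of 24 tested glycolysis genes were higher. The 78 cytosolic ribosomal protein genes had a median of 0.29, with 76 within 2-fold. Rpl29, chosen after its values were seen, went from 9 counts to 697, and Gapdh had 89 and 74 counts. Both have many processed copies in the genome, which can take their reads. Among lipid droplet genes, G0s2 and Plin1 went from 707 counts to 3 and from 213 to 2, and Adipoq, a hormone of fat cells, went from 79 counts to 0.

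Stress genes were higher in 20 of 51 tested and lower in 7, beside 13.3% and 17.4% over all genes, so the count of lower genes is under its share. In this list 10 were higher and 8 lower with library totals and 12 and 4 with quantile normalization. Slc7a11, which imports cystine for glutathione, was 71.5-fold higher (48.9 to 109) and Txnrd1, thioredoxin reductase, 11.1-fold higher (10.5 to 11.8). Hspa1a and Hspa1b, near-identical heat shock genes whose reads may be split, were 45.3-fold (36.4 to 57.1) and 14.7-fold (13.3 to 16.3) higher. The amino acid response genes Trib3 and Asns were 3.71-fold (2.39 to 5.99) and 2.74-fold (2.08 to 3.65) lower. Nlrp3, the inflammasome sensor, went from 938 counts to 10120, 16.7-fold (15.6 to 17.9), and Casp1 and Casp4, inflammatory caspases, were 4.66-fold (4.15 to 5.24) and 16.2-fold (14.4 to 18.4) higher. Chromatin regulators were 28 of 34 within 2-fold, beside 7895 of all 11396 genes tested. Kdm6b, a demethylase induced in activated macrophages, was 9.48-fold higher (8.87 to 10.2) and Tet2 5.96-fold higher (5.50 to 6.47). Chga, a granule protein of neuroendocrine cells, went from 3746 counts to 48, 50.4-fold lower (37.9 to 68.4).

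**Figure D5:**
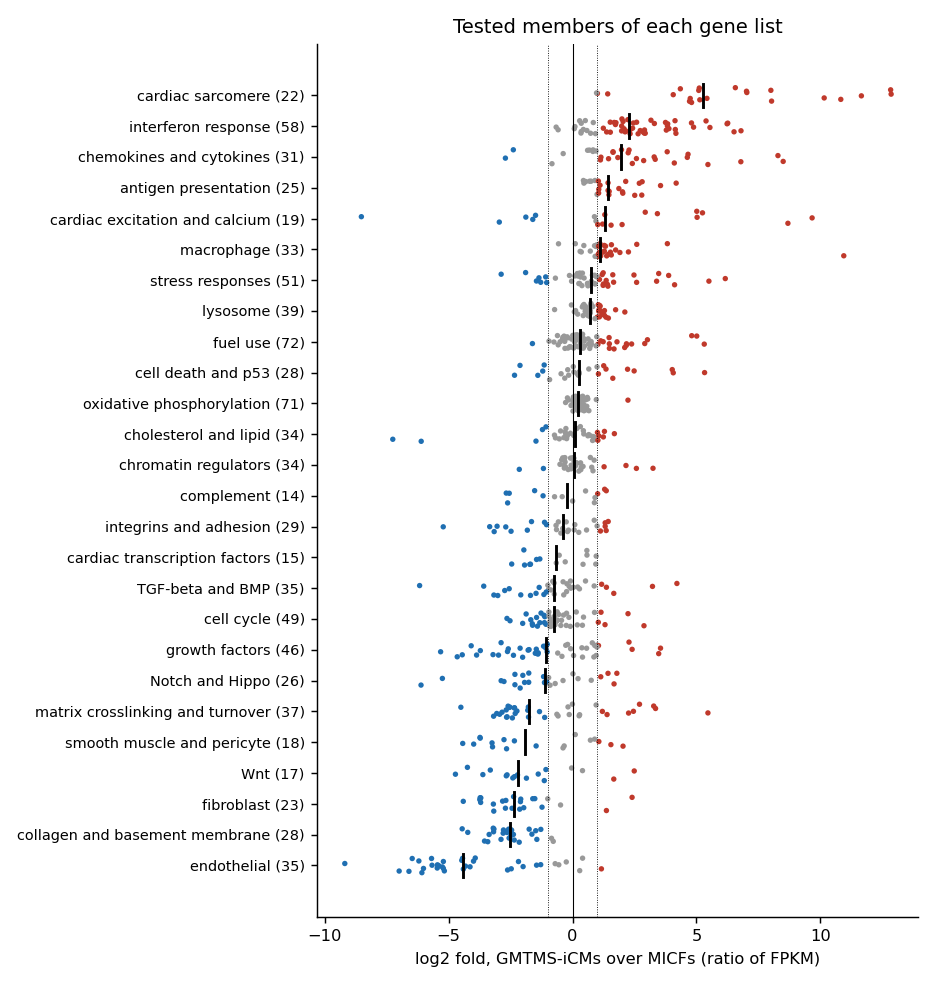
Each point is the log2 fold (GMTMS-iCMs over MICFs) of a tested member of a list with at least 10 of them (members in brackets), red when over 2-fold higher and blue when over 2-fold lower, with the list's median as a black bar and dotted lines at 2-fold. Medians run from -4.43 for endothelial genes to 5.28 for cardiac sarcomere genes.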

How the data were processed

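RNA-seq was available for 3 libraries, 1 per condition, of which MICFs and GMTMS-iCMs were compared. The authors deposited, for each gene, whole-number counts and FPKM. The submitters' processing notes name HISAT2 2.0.5 and mm9, while the gene coordinates match GENCODE M21 on GRCm38 for 95.7% of the 11388 tested genes found in it. The counting tool and strand handling are not given in the sources used here. The deposited FPKM use library sizes of 14389264 and 9287868, not the totals. The column that names no cocktail was taken as MICFs, and 0 columns were unmapped.

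Folds are ratios of deposited FPKM for protein-coding genes with at least 50 counts, with Clopper-Pearson intervals, and 3 counts as the floor. A list was described by its members over 2-fold and its median. The members and the 34 lists were chosen with earlier results of these data known. Named genes are the marker panels, the members with the largest folds, up to 5 a role, and members described as within 2-fold. The 20 highest and 20 lowest genes by the interval bound nearest to 1 were also eligible. Any other named gene was chosen after its values were seen, whether or not this is said beside it. The step was tested on counts simulated with counting error only and scaled by library totals. That test does not cover the authors' scale or a difference between cultures. Alternatives were library totals, TMM (edgeR), quantile-normalized log2 (FPKM + 1), log2 (FPKM + 1) alone, other count minima, 4-fold and whole intervals past 2-fold. Promoter windows came from RefSeq (GRCm38.p6), matched for 9126 genes, 121 through a synonym. Versions were R 4.3.3 with edgeR 4.0.16 for TMM, and SciPy 1.17.1, pandas 2.3.3, numpy 2.4.6 and matplotlib 3.10.9 under Python 3.11.15.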

Additional observations from a re-analysis of the deposited data

Results flagged for a closer look

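Sall4, a factor of the GMTMS cocktail, had 1060 counts in the library labelled GMTMM, whose cocktail has Mesp1 in its place, beside 0 in MICFs. Genes outside the protein-coding comparison also had counts in GMTMS-iCMs above the level in MICFs. The long non-coding RNA 5430431A17Rik had 491 counts beside 1, Mir155hg, the host transcript of a microRNA of activated immune cells, 216 beside 3, and 1110002J07Rik 82 beside 3. The processed pseudogene Gm12617 had 105 counts beside 0, and Cxcl11, an interferon-induced chemokine that the tables class as a polymorphic pseudogene, 104 beside 0.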

How the results depend on the processing

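No paired analysis was possible because there is a single library on either side. Library totals gave 937 genes higher and 3255 lower, and 4-fold gave 626 and 942. Genes lower numbered 1232 with quantile normalization, 1204 with log2 (FPKM + 1) and 1165 with at least 200 counts, and genes higher 2945 with no minimum. List medians are given relative to that of all genes tested. Quantile normalization gave -0.27 for cell cycle, -2.78 for collagen, -3.33 for endothelial, 2.04 for interferon, 0.50 for macrophage and -0.0366 for oxidative phosphorylation genes. Log2 (FPKM + 1) gave -2.41 for collagen, -3.31 for endothelial and 2.04 for interferon genes. The macrophage median was 1.05 with at least 200 counts and 1.08 with no minimum, and collagen -2.62 with at least 200 counts. The lymphocyte, granulocyte and mast cell list turned to -1.64 with at least 200 counts, and the pluripotency list to 2.04 with it and 0.0327 with no minimum. B2m turned to a log2 fold of -0.24 with quantile normalization. The cause was not tested. Counting intervals do not cover the difference between cultures.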

Other observations

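Of 545 genes other than protein-coding ones with at least 50 counts, 149 were over 2-fold higher in GMTMS-iCMs and 86 lower. H19, an imprinted long non-coding RNA, went from 2736 counts in MICFs to 22 in GMTMS-iCMs. Mx2, an interferon-induced gene that the tables class as a polymorphic pseudogene, had 103 and 3004.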
